A study of Mus musculus with 12 samples.

Results

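The genes described here are 8 components of the angiotensin and endothelin systems, measured in the left ventricle of mice: Agt, Ace, Agtr1a, Edn1, Edn3, Ece1, Ednra and Ednrb. They were taken by symbol from the deposited table, in which all 8 were found among 18079 genes. The rule that picks them uses no measured value, but it was set with earlier results of these data known. RNA of the left ventricle of 12 C57BL/6 mice (C57BL/6J in the study's methods) was sequenced, 1 library per mouse, with 3 mice in each of 4 groups. The groups are called DMSO+AB and DMSO+Sham, and Hispidulin+AB and Hispidulin+Sham. All mice were male and were operated on at 8 weeks of age by the labels (8 to 10 weeks in the study's methods), either by banding of the descending aorta (AB), which loads the left ventricle with pressure, or by a sham operation without the band. Hispidulin, a plant flavone, was injected into the peritoneum at 20 mg/kg/day from 1 day ahead of surgery, and the other mice received its solvent DMSO, so that every mouse of the series was both injected and operated on. Hearts were taken 4 weeks after surgery, at an age of 12 weeks. The values are FPKM (fragments per kilobase of transcript, scaled to mapped fragments), which divide a gene's reads by its length and by the size of the library. No read counts entered, and since the depth of the libraries is unknown no counting error is given. The errors are the spread between mice.

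Angiotensinogen (Agt) is cut by renin to angiotensin I, and the angiotensin-converting enzyme (Ace), which sits on the surface of endothelial cells, cuts that to angiotensin II. Angiotensin II acts mainly through its type 1 receptor, of which Agtr1a is the main form in the mouse heart, to raise vascular tone and promote growth and fibrosis. Endothelins are made as long precursors, trimmed first by furin-like proteases and then by the endothelin-converting enzyme (Ece1), and they act through the ETA receptor (Ednra), which constricts vessels and binds endothelin-1 (Edn1) far better than endothelin-3 (Edn3), and the ETB receptor (Ednrb), which binds both peptides alike and on endothelium favours dilation. Both systems are known for their part in pressure overload of the heart.

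The endothelins are close relatives, and the 2 ligand genes measured here share enough sequence that their reads had to be told apart. The stretch below encodes the last part of the mature peptides with the cut made by Ece1, which falls after the tryptophan codon tgg. It was read from the GENCODE vM21 coding sequences (coding bases 172 to 234 of Edn1 and 304 to 366 of Edn3), and capitals mark the bases that differ between the 2 genes.
Edn1: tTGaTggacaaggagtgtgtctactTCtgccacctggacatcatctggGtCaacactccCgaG
Edn3: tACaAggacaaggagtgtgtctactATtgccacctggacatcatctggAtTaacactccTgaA
Of these 63 bases, 54 were identical, as were 17 of the 21 encoded residues. The longest run that the transcripts of Edn1 and Edn3 shared was 21 bases, shorter than the 50-base reads, so in these transcripts no whole read could fit both without a mismatch. The same held for Ednra and Ednrb, whose longest shared run was 15 bases. Agtr1a shared a run of 66 bases with Agtr1b, the second type 1 receptor gene of the mouse, and 1.53% of the 50-base windows of Agtr1a were also found in Agtr1b. Agtr1b itself was listed at 0 in 11 of the 12 mice and at 0.03 FPKM in the other. Exons of annotated genes on the opposite strand overlapped Ace by 173 bases, Ednra by 91 bases and Edn1 by 35 bases, and whether counting used the strand is not given in the sources used here, so reads from these overlaps are uncertain.

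The upstream sequences of Ace and Edn3 are shown because these were the members that rose after AB. They are the 250 bases ahead of the RefSeq start in GRCm38.p6, both on the plus strand, at chr11:105967698-105967947 for Ace and chr2:174760369-174760618 for Edn3. Capitals mark matches on either strand to 5 short motifs, the TATA box TATAAA, the CCAAT box CCAAT, the GC box GGGCGG, the AP-1 site TGANTCA and the TEAD site CATTCC.
Ace: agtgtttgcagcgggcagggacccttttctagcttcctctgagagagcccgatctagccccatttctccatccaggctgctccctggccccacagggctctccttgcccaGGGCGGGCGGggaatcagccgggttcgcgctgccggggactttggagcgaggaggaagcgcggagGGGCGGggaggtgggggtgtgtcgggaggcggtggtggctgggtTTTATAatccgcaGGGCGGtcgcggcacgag
Edn3: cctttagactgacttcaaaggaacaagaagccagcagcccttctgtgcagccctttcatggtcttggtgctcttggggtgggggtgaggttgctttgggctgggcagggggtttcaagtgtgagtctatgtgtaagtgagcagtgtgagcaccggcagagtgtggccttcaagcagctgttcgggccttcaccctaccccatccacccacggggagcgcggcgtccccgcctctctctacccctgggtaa
The Ace sequence held 4 matches to the GC box, the first 2 of them overlapping, and 1 match to the TATA box, which began 31 bases ahead of the start. The Edn3 sequence held 0 matches to any of the 5 motifs, which says only that these letters were not in this window. Among 32851 mouse promoters of the same length, 32.7% held a GC box, 12.4% a TATA box, 33.8% a CCAAT box, 6.75% an AP-1 site and 12.6% a TEAD site. RefSeq lists a further start of Ace at a point inside the gene, and the table gives 1 value per gene, so the 2 starts were not separated.

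The libraries were alike in total, with summed FPKM between 535235 and 567027. The third DMSO+Sham mouse stood somewhat apart: its best Spearman correlation across tested genes with a mouse of its own group was 0.960, against at least 0.974 for each of the other 11 mice, and its cardiac actin Actc1 was 2741 FPKM against at least 7909 FPKM elsewhere. The differences of the called members after AB, and their interaction with hispidulin, are therefore also given without that mouse. Markers of heart muscle, most of which atrium and ventricle share, summed to between 35399 and 51906 FPKM, and among them the ventricular light chain Myl2 measured 11178 to 16920 FPKM. Atrial markers, 5 genes in all, summed to between 9.06 and 46.8 FPKM in 9 mice and to 794, 192 and 102 FPKM in the third Hispidulin+Sham, the second DMSO+AB and the third Hispidulin+AB mouse. All 8 members passed the filter on low values, 1 FPKM or more in 3 or more mice, which left 11664 genes for testing.

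The levels of the 8 genes, comparable between genes because FPKM is per length, fell into an order that was largely shared by the mice. Averaged over 12 mice, Ace was highest at 36.1 FPKM, followed by Ece1 at 23.0 FPKM, Agtr1a at 16.3 FPKM and Ednra at 14.8 FPKM. Ednrb stood at 7.31 FPKM, and the precursors were lowest, with Agt at 4.30 FPKM, Edn1 at 3.08 FPKM and Edn3 at 2.13 FPKM. Among the mean levels of all tested genes, the enzymes and receptors lay at percentiles 44.9 to 82.7 and the 3 precursors at percentiles 14.3 to 30.2. Neighbours in this order exchanged places between mice: Ace ranked from 1 to 3 among the 8, Agtr1a from 1 to 4, Ednra from 3 to 5, Edn1 from 5 to 8 and Edn3 from 6 to 8. The spread over mice differed between genes, with a coefficient of variation over all 12 mice of 73.2% for Edn3 and 41.4% for Ace against 10.8% for Ece1.

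**Figure D1:**
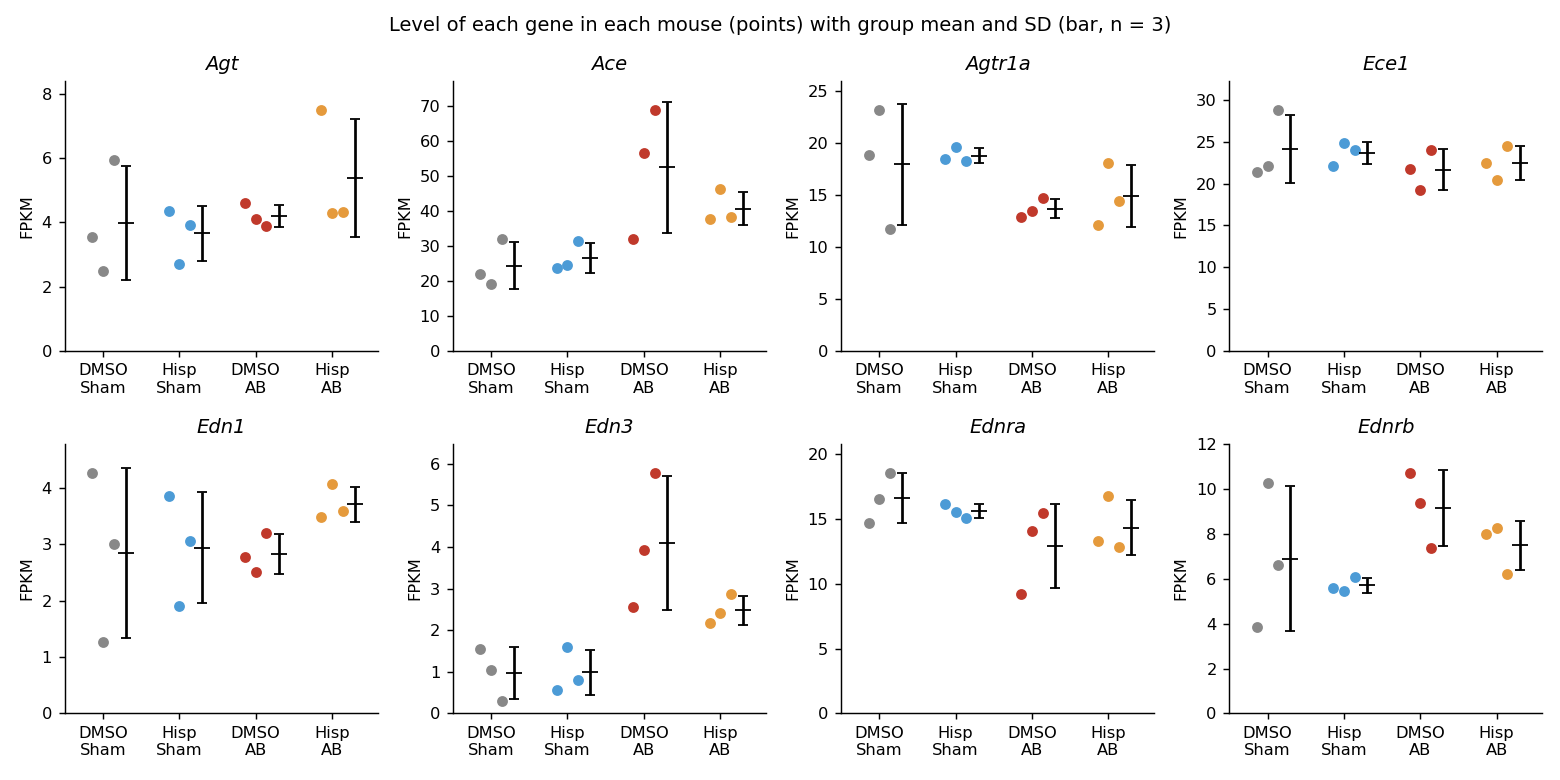
FPKM (vertical axis, linear from 0) of each of the 8 genes in each mouse, with 1 point per mouse and the group mean and SD (n = 3) beside it; Hisp stands for hispidulin. The 6 banded mice lie above all 6 sham mice for Ace (32.2 FPKM against 32.0 FPKM at the nearest) and Edn3 (2.18 FPKM against 1.59 FPKM), while banded and sham mice overlap for the other genes.

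The comparison of AB with sham asked how pressure load moved these genes, and 2 of the 8 passed the test, Ace and Edn3, both higher after AB. Ace, the enzyme that forms angiotensin II, measured 22.1, 19.0 and 32.0 FPKM in the DMSO+Sham mice and 32.2, 56.7 and 69.0 FPKM in the DMSO+AB mice. In Hispidulin+Sham mice it measured 23.6, 24.6 and 31.4 FPKM, and in Hispidulin+AB mice 37.65, 46.3 and 38.3 FPKM. Every banded mouse was above every sham mouse, but the lowest banded mouse (the first DMSO+AB mouse) and the highest sham mouse (the third DMSO+Sham mouse) differed by little. Group means were 24.4 FPKM ± 6.78 (SD, n = 3) in DMSO+Sham, 26.5 FPKM ± 4.25 in Hispidulin+Sham, 52.6 FPKM ± 18.8 in DMSO+AB and 40.8 FPKM ± 4.79 in Hispidulin+AB. On the log2(FPKM + 1) scale Ace was higher by 1.05 (SE 0.25) under DMSO, with an adjusted p of 0.037 from limma, and by 0.83 (SE 0.18, adjusted p 0.0186) as the mean over both treatments. An exact permutation test of 6 banded against 6 sham mice, with labels exchanged within each treatment, gave the smallest two-sided p its 400 arrangements allow, 0.005. In bulk tissue, more cells of a type and more RNA per cell cannot be told apart for a rise, nor fewer cells and less RNA per cell for a fall.

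Edn3, the endothelin known for its work with Ednrb in cells of the neural crest, was at 1.55, 1.04 and 0.31 FPKM in DMSO+Sham mice and at 2.56, 3.94 and 5.79 FPKM in DMSO+AB mice. With hispidulin its level was 0.56, 1.59 and 0.81 FPKM after sham surgery and 2.18, 2.41 and 2.86 FPKM after AB. All 6 banded mice lay above all 6 sham mice, and the mean of the banded mice was 3.37 times that of the sham mice. Edn3 reached 1 FPKM in 9 mice, 3 of them sham, so the sham mice alone would have met the filter on low values. Its group means were 0.967 FPKM ± 0.623 (SD, n = 3) in DMSO+Sham, 0.987 FPKM ± 0.537 in Hispidulin+Sham, 4.10 FPKM ± 1.62 in DMSO+AB and 2.48 FPKM ± 0.346 in Hispidulin+AB. The difference was 1.38 (SE 0.28) on the log2(FPKM + 1) scale under DMSO (limma, adjusted p 0.0199) and 1.11 (SE 0.20, adjusted p 0.00846) over both treatments, and the exact permutation p was 0.005. This scale understates changes of low genes, and with 0.1 in place of 1 the difference under DMSO was 2.12.

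Against these 2 of 8, 5.21% of all tested genes passed at an adjusted p under 0.05 in DMSO+AB against DMSO+Sham, and 7.39% in the mean over both treatments. These backgrounds moved with single mice and with the model. Under DMSO the 608 genes called became 91 without the first and 1053 without the second DMSO+Sham mouse, 954, 97 and 191 without the first, the second and the third DMSO+AB mouse, 364 and 391 without the first and the third Hispidulin+AB mouse, and 395 without the first Hispidulin+Sham mouse. They became 11 with only the 6 libraries compared, 142 with the animal number series as covariate, 383 with no filter on low values, 1423 with library weights and 0 by the study's stricter criteria. Over both treatments the 862 genes ranged from 376 to 1220 with 1 mouse left out, and became 547 with the animal number series, 2535 with library weights and 9 by the study's criteria. The 3 banded and 3 sham mice did not overlap in 17.9% of tested genes under DMSO, and in 2 of the 8 members. The 6 banded and 6 sham mice did not overlap in 4.96% of tested genes, and in the same 2 members, Ace and Edn3. Without the third DMSO+Sham mouse, Ace was higher by 1.25 under DMSO (limma, adjusted p 0.0225) and by 0.93 over both treatments (adjusted p 0.00791), and Edn3 by 1.11 (adjusted p 0.0408) and 0.97 (adjusted p 0.00767). The exact permutation p over both treatments was then 0.01 for each gene. Under DMSO these calls rested on few mice. With only the 6 libraries compared in the model, 0 members passed. The Ace call under DMSO was lost in limma without the first or second DMSO+Sham mouse (adjusted p 0.126 and 0.0679) or the second or the third DMSO+AB mouse (0.13 and 0.121). That call was lost as well with no filter on low values and with the animal number series as covariate. It was also lost, with the same estimate, without single mice of the groups that only share the estimate of the spread, namely the first or second Hispidulin+Sham mouse (adjusted p 0.0559 and 0.0556) or any Hispidulin+AB mouse (0.0512 to 0.0574). In the same comparison limma lost the Edn3 call without the second or the third DMSO+AB mouse (adjusted p 0.078 and 0.0727). Over both treatments the Edn3 call was kept whichever mouse was left out, and the Ace call was lost without the first or second Hispidulin+Sham mouse (adjusted p 0.0528 and 0.0516 from limma) and with the series of animal numbers as a covariate (0.0676). That covariate also set the first DMSO+Sham mouse aside, since it was alone in its series. The median difference of the 8 members over both treatments was 0.23, against -0.03 over all tested genes.

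**Figure D2:**
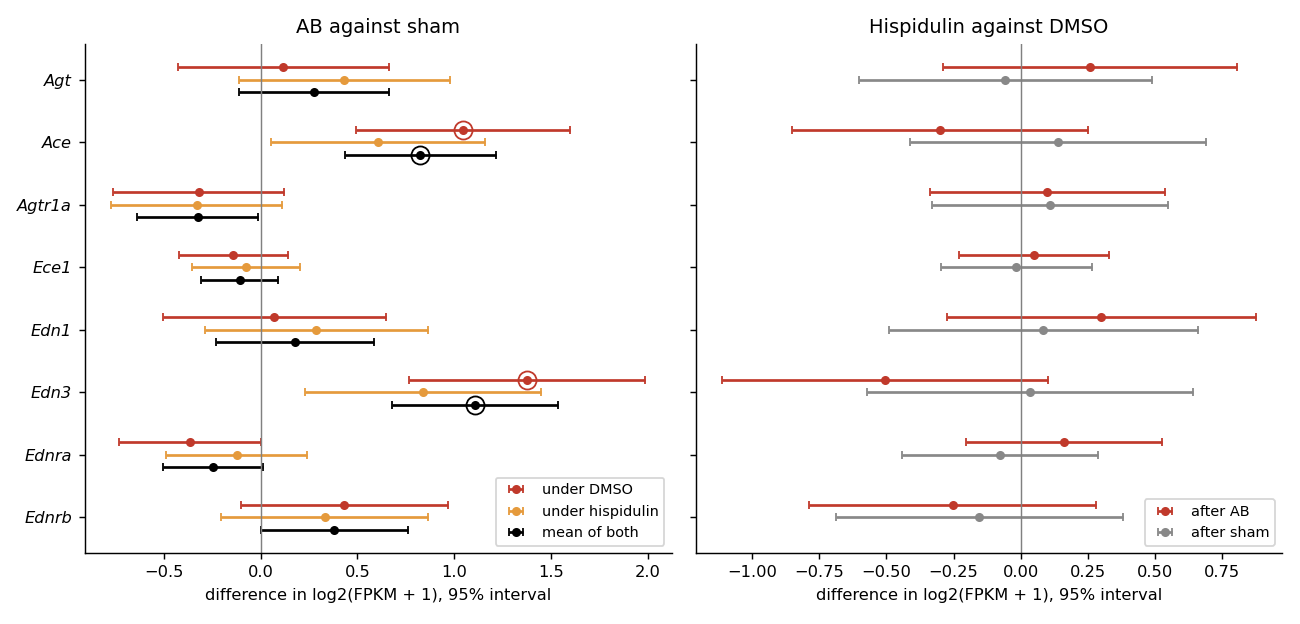
Difference in log2(FPKM + 1) for each gene, AB against sham on the left and hispidulin against DMSO on the right, with points for the limma estimates and bars for their 95% intervals; rings mark an adjusted p under 0.05. Rings stand only at Ace (1.05 and 0.83) and Edn3 (1.38 and 1.11), under DMSO and in the mean of both treatments, and every interval on the right crosses 0.

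The other members of the angiotensin system did not pass. Agt, the precursor, measured between 2.47 and 5.93 FPKM in the 6 sham mice and between 3.90 and 7.50 FPKM in the 6 banded mice, with the single highest value in the first Hispidulin+AB mouse. Its difference over both treatments was 0.28 (SE 0.18, limma, adjusted p 0.393). Agtr1a, the receptor, measured 18.85, 23.15 and 11.7 FPKM in DMSO+Sham and 18.4, 19.6 and 18.2 FPKM in Hispidulin+Sham mice. After AB it measured 12.8, 13.4 and 14.7 FPKM with DMSO and 12.1, 18.1 and 14.4 FPKM with hispidulin. All 6 banded mice were below 5 of the 6 sham mice, but the third DMSO+Sham mouse was the lowest of all. The difference over both treatments was -0.33 (SE 0.14), with an unadjusted p of 0.0415 and an adjusted p of 0.193 from limma. Without the third DMSO+Sham mouse that difference was -0.46 and its adjusted p 0.0183, and with any 1 mouse left out it ranged from -0.46 to -0.22. The exact permutation p over all 12 mice was 0.065.

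In the endothelin system, the ligand Edn1, made mainly by endothelium, measured 4.27, 1.27 and 3.01 FPKM in DMSO+Sham and 3.86, 1.91 and 3.05 FPKM in Hispidulin+Sham mice. It measured 2.78, 2.50 and 3.20 FPKM in DMSO+AB and 3.48, 4.06 and 3.59 FPKM in Hispidulin+AB mice. The sham mice spread wider than the banded mice and enclosed them, and the difference over both treatments was 0.18 (SE 0.19, limma, adjusted p 0.622). Ece1, the converting enzyme, varied least, between 19.2 and 28.8 FPKM in all 12 mice, with a difference of -0.11 (SE 0.09, adjusted p 0.526). Edn1 was the more abundant ligand in 10 of the 12 mice, and Edn3 exceeded it in the second and the third DMSO+AB mice.

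The 2 receptors of these ligands differed in the sign of their estimates. Ednra, found mainly on smooth muscle and also on cardiomyocytes, measured 14.7, 16.5 and 18.6 FPKM in DMSO+Sham and 9.23, 14.03 and 15.4 FPKM in DMSO+AB mice. With hispidulin it measured 16.2, 15.6 and 15.1 FPKM after sham surgery and 13.3, 16.8 and 12.9 FPKM after AB. Groups overlapped under both treatments, and the first DMSO+AB mouse was the lowest. Ednrb measured 3.84, 10.25 and 6.61 FPKM in DMSO+Sham and 10.7, 9.38 and 7.35 FPKM in DMSO+AB mice, and 5.58, 5.47 and 6.07 FPKM in Hispidulin+Sham and 7.98, 8.25 and 6.23 FPKM in Hispidulin+AB mice. The second DMSO+Sham mouse was as high as banded mice. Neither receptor passed the test across genes: over both treatments the difference was -0.24 (SE 0.12, limma, adjusted p 0.244) for Ednra and 0.38 (SE 0.17, adjusted p 0.209) for Ednrb. The exact permutation p was 0.065 for Ednra and 0.045 for Ednrb. The Ednrb difference over both treatments was 0.53 without the second DMSO+Sham mouse (adjusted p 0.0315 from limma) and 0.23 without the first (adjusted p 0.378). That of Ednra was -0.14 without the first DMSO+AB mouse (adjusted p 0.375).

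Set against each other within a mouse, the FPKM of Ednra was 3.83, 1.61 and 2.81 times that of Ednrb in DMSO+Sham mice and 2.90, 2.84 and 2.48 times in Hispidulin+Sham mice. After AB the ratio was 0.86, 1.496 and 2.10 with DMSO and 1.67, 2.04 and 2.06 with hispidulin. Ednra exceeded Ednrb in 11 of the 12 mice, the exception being the first DMSO+AB mouse, and the ratio of the second DMSO+Sham mouse lay among those of banded mice. Group means of the ratio were 2.75 ± 1.11 (SD, n = 3), 2.74 ± 0.227, 1.48 ± 0.619 and 1.92 ± 0.220 in the same order of groups. The log2 difference between the receptors changed by -0.63 after AB, with an exact permutation p of 0.02. It is 1 of 34 such tests run on all 12 mice, 9 on the members and this ratio, 9 on marker sums and 16 on members relative to a marker sum, and these p-values are unadjusted. It depended on single mice: without the first DMSO+Sham mouse the p was 0.06, without the third DMSO+Sham mouse 0.05, and without the first DMSO+AB mouse 0.07.

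**Figure D3:**
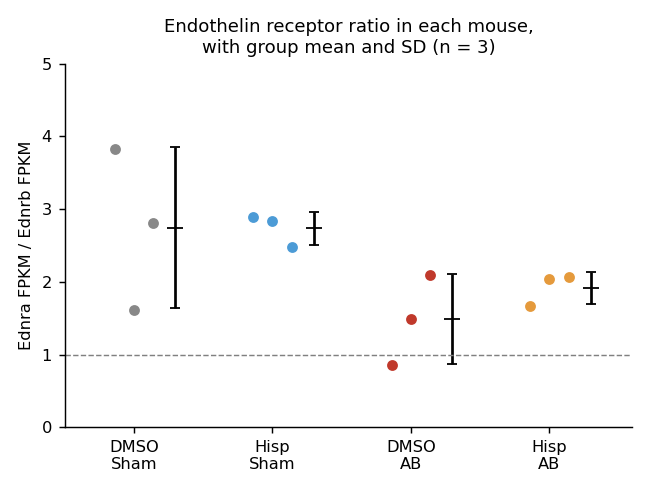
Ratio of Ednra FPKM to Ednrb FPKM (vertical axis, linear from 0) in each mouse, 1 point per mouse, with the group mean and SD (n = 3) and a dashed line at equal levels. Only the first DMSO+AB mouse lies under the line, at 0.86, and group means are 2.75 and 2.74 after sham surgery against 1.48 and 1.92 after AB.

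With hispidulin, AB against sham gave 0 members called by limma, and 0% of all tested genes were called. Without adjustment 847 genes had a p under 0.05 in limma, among them 2 members. Edn3 differed by 0.84 (SE 0.28, adjusted p 0.521 from limma) and Ace by 0.61 (SE 0.25, adjusted p 0.656). With the replicate number as a block 17 genes were called, with only the 6 libraries compared 49, and with library weights 209, with 0 members in each case. The banded and sham groups of 3 did not overlap for Ace, Edn3, Ednrb and Agtr1a, 4 of the 8, where 20.9% of all genes did not overlap. Both comparisons of AB with sham enter the mean over treatments, and the test of whether they differ, the interaction of hispidulin and AB, called 0% of all genes and 0 of the 8 members. Without adjustment limma gave 289 genes and 0 members a p under 0.05 for the interaction. Its estimate was -0.54 (95% interval -1.40 to 0.32) for Edn3 and -0.44 (-1.22 to 0.34) for Ace. Without the third DMSO+Sham mouse it was -0.27 (-1.05 to 0.51) and -0.65 (-1.39 to 0.10). With any 1 mouse left out it ranged from -0.77 to -0.27 for Edn3 and from -0.75 to -0.21 for Ace. The lower ends came without the first DMSO+AB mouse, where the interval of Ace (-1.36 to -0.15) did not reach 0 but its adjusted p from limma was 0.561. Without the third DMSO+AB mouse the estimates were -0.31 for Edn3 and -0.21 for Ace. For Edn3 the estimate was -0.33 without the second Hispidulin+Sham mouse, and for Ace -0.29 without the second DMSO+Sham mouse.

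The comparison of hispidulin with DMSO after AB asked whether the compound moved these genes in the loaded ventricle, and 0 members and 0% of all genes passed in limma. Without adjustment, 362 genes and 0 members had a p under 0.05. The mean level of Edn3 was 2.48 FPKM with hispidulin and 4.10 FPKM with DMSO, a difference of -0.50 on the log2(FPKM + 1) scale (95% interval -1.11 to 0.10), and that of Ace was 40.8 and 52.6 FPKM, a difference of -0.30 (-0.85 to 0.25). Without the first DMSO+AB mouse these differences were -0.74 and -0.61 (adjusted p 0.367 and 0.298 from limma), and without the third DMSO+AB mouse -0.27 and -0.0736. The first DMSO+AB mouse lay within or under the Hispidulin+AB mice for both genes, and the second and the third lay above all of them. Edn1 alone had groups that did not overlap, at 3.48 to 4.06 FPKM with hispidulin and 2.50 to 3.20 FPKM with DMSO (difference 0.30, 95% interval -0.27 to 0.88), where 7.88% of all genes did not overlap. The other estimates lay between -0.25 for Ednrb and 0.26 for Agt. With 3 mice a group these intervals hold both no change and sizeable changes.

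After sham surgery hispidulin likewise called 0% of all genes and 0 members, and limma without adjustment gave 287 genes and 0 members. No member had groups that did not overlap, against 5.6% of all genes. Estimates lay between -0.15 for Ednrb and 0.14 for Ace on the log2(FPKM + 1) scale, and the 95% interval of Ace reached from -0.41 to 0.69. Ednrb showed how the spread differed between the sham groups, with an SD of 0.319 FPKM among Hispidulin+Sham mice and 3.21 FPKM among DMSO+Sham mice.

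The remaining genes of the renin-angiotensin system gave 0 calls in any comparison with limma. Of the 22 listed, 16 were in the table analysed and 11 passed the filter, and over both treatments 4 were higher and 7 lower after AB, with a median of -0.04 against -0.03 over all genes. The 4 most abundant were Prep, a peptidase that can form angiotensin-(1-7), at 16.3 to 25.6 FPKM with a difference of 0.23 (adjusted p 0.0925), Agtrap, which drives the type 1 receptor into the cell, at 13.5 to 18.4 FPKM, Atp6ap2, the (pro)renin receptor, at 7.80 to 12.7 FPKM, and Thop1, another such peptidase, at 6.62 to 11.03 FPKM. The genes nearest to the threshold, named after their values were seen, were Nr3c2, the mineralocorticoid receptor, and Mme, or neprilysin, which degrades several vasoactive peptides. Nr3c2 lay between 1.42 and 5.35 FPKM in sham and between 1.01 and 1.33 FPKM in banded mice without overlap, a difference of -0.67 (SE 0.19, adjusted p 0.0524). Mme lay between 0.89 and 2.04 FPKM in sham and between 0.50 and 1.43 FPKM in banded mice, a difference of -0.43 (SE 0.13, adjusted p 0.0589). Neither passed.

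Around the endothelins, 4 of 7 listed genes passed the filter and 0 were called. Furin, the protease that trims the precursor ahead of Ece1, was at 32.5 to 57.0 FPKM with a difference of -0.06 over both treatments. The related proteases Pcsk6 and Pcsk7 differed by 0.06 and -0.15, and Ece2, the second converting enzyme, by 0.12. Edn2, the remaining endothelin, did not exceed 0.05 FPKM in any mouse. Of 7 genes of the kinin system, whose bradykinin is a further substrate of Ace, 0 passed the filter, and none exceeded 0.31 FPKM. Of 24 genes that carry signals from these receptors, such as Gq and G12 proteins, phospholipases and their regulators, 23 were tested and 0 were called, with 13 higher and 10 lower after AB over both treatments and a median of 0.00. Its 4 most abundant genes, Rgs5, Gna12, Gna11 and Arhgef12, differed by -0.21, -0.15, 0.00 and 0.20.

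Genes that angiotensin II and endothelin-1 are known to induce in heart tissue, though many other signals do so too, were higher after AB as a list. All 16 had positive estimates, and 11 were called over both treatments and 8 under DMSO, against the background of 7.39% and 5.21% of all genes. Their median difference was 1.57 over both treatments, against -0.03 over all genes. Among natriuretic peptides and fetal muscle genes, Acta1 rose by 3.57 (SE 0.30, adjusted p 0.000404), Nppa by 2.85 (SE 0.57, adjusted p 0.0135) and Nppb by 2.48 (SE 0.25, adjusted p 0.000613). Among genes of matrix proteins and matrix regulators, Postn rose by 2.38, Timp1 by 1.78, Ccn2 by 1.51, Ccn1 by 1.51 and Tgfb1 by 0.50. The calcineurin regulator Rcan1 rose by 1.63 and the stress factor Atf3 by 2.20. Under hispidulin AB gave 0 calls in this list, with a median of 1.66, and hispidulin against DMSO after AB gave 0 calls with a median of -0.23.

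Markers of the cell types that carry these genes moved unevenly with AB. The summed level of each of 9 marker lists was compared between banded and sham mice, and for 2 of them, the endothelial and the Schwann cell markers, the unadjusted exact permutation p was under 0.05. Of 8 endothelial markers 0 were called, and their summed level was 338 to 405 FPKM in sham and 373 to 412 FPKM in banded mice, higher by 0.12 on the log2 scale (exact permutation p 0.02). The markers did not rise together: over both treatments 4 were higher and 4 lower, with a median difference of 0.02. Egfl7 alone had a mean of 68.6 FPKM in sham and 87.9 FPKM in banded mice. Of 8 fibroblast markers 2 were called over both treatments, Col1a1 and Col1a2, higher by 1.42 and 1.10, with a summed level of 852 to 1085 FPKM in sham and 890 to 1303 FPKM in banded mice (0.17 on the log2 scale, exact permutation p 0.215). Of 8 mural cell markers Tagln was called higher by 0.49 and Abcc9 lower, at -0.61, and their sum was 243 to 297 FPKM in sham and 199 to 278 FPKM in banded mice (-0.15, exact permutation p 0.13). Of 8 cardiomyocyte markers 3 were called lower, Atp2a2 at -0.53, Pln at -0.43 and Ryr2 at -0.38, while their sum differed by -0.077 (exact permutation p 0.45). Among leukocyte, atrial, mesothelial and red cell markers 0 were called, and the exact permutation p of their sums was 0.45, 0.88, 0.9 and 0.545. Schwann cell markers, 5 genes of the neural crest lineage in which Edn3 and Ednrb are best known, summed to 2.83 to 5.13 FPKM in sham and 0.94 to 3.31 FPKM in banded mice (exact permutation p 0.005). Of these 5 genes 2 passed the filter on low values and 0 were called. The part of cell composition in the results of single members was not tested, and the ratios that follow only set members beside raw marker sums.

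Relative to the summed endothelial markers of the same mouse, a comparison chosen after seeing the data, Ace was higher after AB by 0.70 (exact permutation p 0.01) and Edn3 by 0.98 (p 0.005). Relative to the summed fibroblast markers, Ace was higher by 0.66 (exact permutation p 0.01) and Edn3 by 0.94 (p 0.005). Both differences were thus somewhat smaller than the unscaled 0.83 and 1.11. Gsn and Dcn, at means of 543 and 320 FPKM over the 12 mice, made up most of the fibroblast sum. The called Col1a1 and Col1a2 stood at means of 29.9 and 38.5 FPKM. A ratio to this sum therefore cannot show how a member moved relative to the collagen genes that rose. Without the third DMSO+Sham mouse Ace was higher by 0.80 and 0.78 relative to the endothelial and fibroblast sums (exact permutation p 0.01 and 0.005) and Edn3 by 0.84 and 0.82 (p 0.01 and 0.005). Agtr1a differed by -0.45 against the endothelial sum (exact permutation p 0.045) and by -0.49 against the fibroblast sum (p 0.015), and Ednra by -0.37 (p 0.015) and -0.41 (p 0.02). Ece1 differed by -0.23 against the endothelial sum (exact permutation p 0.01), and its difference against the fibroblast sum was -0.28 (p 0.145). For Ednrb the difference was 0.26 (exact permutation p 0.215) and 0.21 (p 0.35), against 0.38 unscaled. For Agt it was 0.15 (exact permutation p 0.455) and 0.11 (p 0.71), against 0.28 unscaled, and for Edn1 0.0556 (p 0.79) and 0.0107 (p 0.965), against 0.18. Among the 6 banded mice the order of Ace levels was the same as that of Col1a1, a marker picked after the values were seen, and differed from that of the other 7 fibroblast markers. For Col1a1, the third and the second DMSO+AB mice were at 75.6 and 74.8 FPKM, the second, the third and the first Hispidulin+AB mice at 42.8, 29.3 and 23.2 FPKM, and the first DMSO+AB mouse at 22.9 FPKM.

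**Figure D4:**
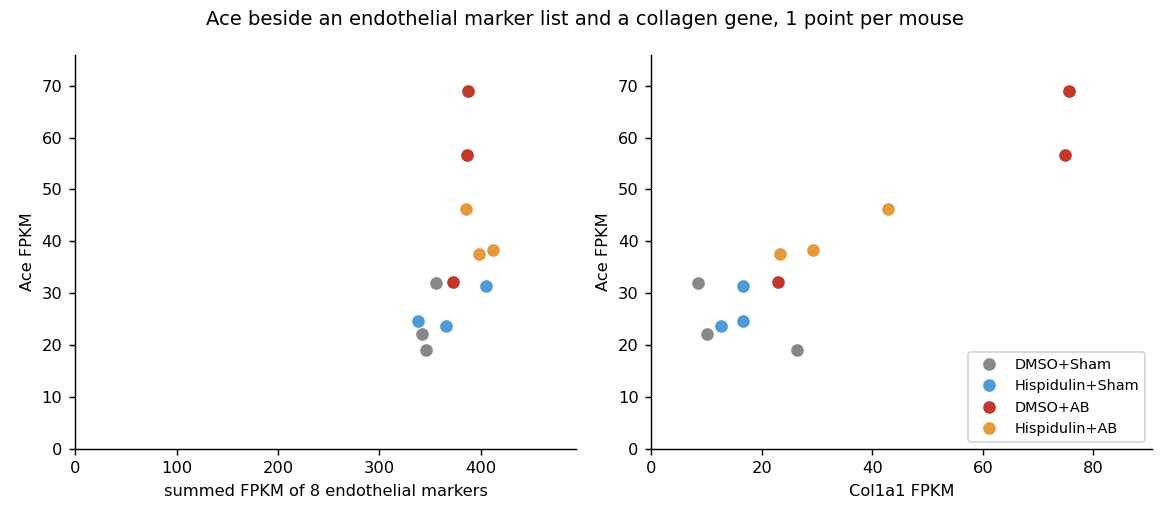
Ace FPKM (vertical axis) in each of 12 mice against the summed FPKM of 8 endothelial markers on the left and against Col1a1 FPKM on the right, 1 point per mouse, with linear axes from 0. The endothelial sum stays between 338 and 412 FPKM while Ace runs from 19.0 to 69.0 FPKM, and the 2 mice with Ace over 50 are those with Col1a1 near 75 FPKM. Col1a1 was chosen from 8 fibroblast markers after the values were seen, and the other 7 ordered the banded mice differently from Ace.

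The genes whose log2(FPKM + 1) followed each member most closely over the 12 mice, by Pearson's r and as a description only, differed from member to member. Ace was followed by Galns (r = 0.96), Eln (0.96) and Plekho1 (0.95), and these stayed at 0.97, 0.87 and 0.93 once group means were removed. Edn3 was followed by Map4 (r = 0.96), Cpxm2 (0.96) and Abcb4 (0.95), and Agtr1a by Rxrg (0.93), Carns1 (0.92) and Mrm1 (0.92). Ednrb was followed by Actg1 (r = 0.93), Mall (0.92) and Klf4 (0.92), Ednra by Slc15a4 (0.95), Tfb1m (0.94) and Mtif3 (0.88), and Agt by Grrp1 (0.93), Sbno2 (0.88) and Zfp972 (0.88). Ece1 had Wasf2 (r = 0.91), Ccdc159 (0.90) and Tnfrsf14 (0.89), and Edn1, with the lowest values, St3gal5 (0.88), Angptl4 (0.84) and Pdk4 (0.84). These mice share their group differences and tissue makeup, and each trio is the top of 11664 genes. Among the 28 pairs of members, the strongest relation over 12 mice was between Agt and Agtr1a (r = -0.83, and -0.89 within groups). Ace and Edn3 followed each other over all mice (r = 0.76) but little within groups (r = 0.16), whereas Ace and Ednra did so within groups (r = 0.82) and not over all mice (r = -0.11).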

How the data were processed

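Left ventricular RNA of 12 mice was measured, 3 in each of 4 groups taken from the sample labels. The authors deposited FPKM rounded to 0.01 for 18079 genes listed by NCBI Gene identifier, from single-end 50-base reads of polyadenylated RNA on a BGISEQ-500. The submitters' processing notes name HISAT2 2.0.4, Bowtie2 2.2.5, RSEM 1.2.12 and DESeq2 1.4.5, without their order, and the genome build and annotation are not given in the sources used here. The steps between low FPKM did not return whole reads (21.8% of ratios within 0.1 of a whole number, where an even spread gives 20%), so no count test was run and depth is unknown. Symbols were matched for 17947 identifiers (99.3%) through the RefSeq gene table of GRCm38.p6. All columns of the table were mapped to a mouse.

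FPKM were taken as log2(FPKM + 1) in R 4.3.3 with limma 3.58.1 for the 11664 genes with at least 1 FPKM in at least 3 mice. All 12 mice entered 1 model with a mean for each group, moderated by eBayes with a trend. Two-sided p-values were adjusted by Benjamini-Hochberg over all tested genes, and genes with an adjusted p under 0.05 were called. Single values were compared between 6 banded and 6 sham mice by a two-sided exact permutation test within treatments, in Python 3.11.15. Replicates are separate mice. The fits were tested on simulated data first.

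The 8 members, the pathway lists and the cell type markers were chosen with earlier results of these data known. Named in full were the members, and from each other list the genes called in any comparison or otherwise up to 4 of highest mean level, plus the 3 genes most correlated with each member. Some genes chosen in this way are not reported here. Upstream sequences came from RefSeq (GRCm38.p6, 7 of the 8 members) and coding sequences from GENCODE vM21. Same-numbered mice are different animals. Their deviations from group means correlated by 0.15 to 0.23 in the comparison of Hispidulin+AB with Hispidulin+Sham and by 0.13 to 0.33 between the sham groups, while at least 1 pair was negative in the other comparisons, and the number was tried as a block. Further alternatives were a pseudocount of 0.1, no filter, median-of-ratios or quantile scaling, a fit without the trend, limma's library weights, a covariate for the animal number series, a fit of the compared libraries alone, the study's stricter criteria (FDR at or under 0.001 and a log2 ratio at or over 1), and each mouse left out in turn.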

Additional observations from a re-analysis of the deposited data

How the results depend on the processing

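The number of members called stayed at 0 under every alternative run in the comparisons of Hispidulin+AB with Hispidulin+Sham, of hispidulin with DMSO after AB and after sham surgery, and in the interaction. For DMSO+AB against DMSO+Sham it was 2 as reported, 1 with no filter on low values, 1 with the animal number series as covariate, 0 with only the libraries compared (fewer samples), 0 by the study's criteria, 3 with library weights (Ednrb joining, 0.89, adjusted p 0.0323), and 0 to 2 with 1 mouse left out. For the mean over both treatments it was 2, and became 1 with the animal number series, 4 with library weights, 0 by the study's criteria, and 1 to 3 with 1 mouse left out. With the replicate block it was again 2 in both, and no call of a member changed. Same-numbered mice deviated together in 2 of the 4 comparisons tested, as far as 3 numbers can show. With library weights Agtr1a (-0.41, adjusted p 0.0241) and Ednrb (0.63, adjusted p 0.0113) joined Ace and Edn3 over both treatments. The log2 receptor ratio ranged from -0.77 to -0.47 with 1 mouse left out. Ace and Edn3 kept their direction after AB under all alternatives run. Estimates near 0 changed sign: with library weights Edn1 after AB under DMSO was -0.33, and after sham surgery the hispidulin differences were -0.33 for Edn1, -0.19 for Edn3, 0.0992 for Ece1, 0.0355 for Ednra and 0.24 for Ednrb. With quantile normalization those of Edn3 and Ece1 were -0.00691 and 0.0135. With 1 mouse left out, AB under DMSO ranged from -0.11 to 0.39 for Agt and -0.27 to 0.34 for Edn1. Hispidulin after AB ranged from -0.0415 to 0.23 for Agtr1a, -0.0304 to 0.12 for Ece1 and -0.0450 to 0.30 for Ednra. Hispidulin after sham ranged from -0.29 to 0.21 for Agt, -0.0142 to 0.35 for Ace, -0.15 to 0.31 for Agtr1a, -0.25 to 0.35 for Edn1, -0.23 to 0.25 for Edn3, -0.0906 to 0.11 for Ece1, -0.16 to 0.00171 for Ednra and -0.47 to 0.14 for Ednrb. The cause of these changes was not tested. With 3 mice a group and the depth unknown, counting error cannot be separated from the spread between mice.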

Other observations

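The banded mice, numbered by replicate, were split into sets of 3 after their values were seen. The former set was DMSO+AB mouse 1 with Hispidulin+AB mice 1 and 3. The latter set was DMSO+AB mice 2 and 3 with Hispidulin+AB mouse 2, so the split did not follow treatment. The early-response gene Atf3 was at 67.9 to 115.85 FPKM in the former set and at 14.55 to 20.6 FPKM in the latter. Other early-response genes were also higher in each of the former 3 mice than in any of the latter 3. Fos was at 7.67 to 11.85 against 0.77 to 1.72 FPKM, and Egr1 at 21.1 to 24.55 against 3.19 to 7.59 FPKM. The same held for Myc, at 9.72 to 14.75 against 3.82 to 5.49 FPKM, for Ccn1, at 149.6 to 255 against 66.2 to 75.9 FPKM, and for Rcan1, at 310.2 to 406.5 against 159 to 244 FPKM. The chemokine Ccl2 was at 11.3 to 20.96 against 0.68 to 2.21 FPKM, and the third DMSO+Sham mouse had 13.1 FPKM. Like Ace, 3 genes of the load response were lower in each of the former mice: Acta1 at 1893 to 2824 against 4206 to 8828 FPKM, Nppa at 666 to 849.6 against 1047 to 6043 FPKM, and Postn at 16.8 to 35.2 against 50.85 to 184 FPKM. Other genes of the load response overlapped between these sets of mice. Nppb was at 1103 to 1394 against 801 to 1774 FPKM, and Timp1 at 13.5 to 17.7 against 7.54 to 35.6 FPKM. Tgfb1, Ccn2 and Spp1 overlapped as well. The share of all tested genes that parted in this way was not computed. The part of this split of the banded mice in the results for Ace was not tested.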
